A study of Zea mays with 9 samples.

Results

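The 100 transcripts with the highest mean abundance in well-watered maize root tips are described here, of 46599 transcripts with a deposited abundance. They were chosen by their mean CPM (reads of a transcript divided by the reads of all listed transcripts, times 1000000) over the 3 well-watered libraries, and they belong to 95 genes. Seedlings of the inbred line B73 stood in darkness in moist vermiculite whose water potential was -0.02 MPa in the well-watered treatment, -0.3 MPa in mild stress and -1.6 MPa in severe stress. Root tips of 1 cm were harvested 26 h after seedlings were moved into these treatments. Each treatment had 3 libraries, labelled replicates 1, 2 and 3 (well-watered), 1, 3 and 4 (mild) and 1, 2 and 5 (severe), each from 5 pooled roots. The segment holds the cap, meristem and elongation zone together, so that fewer cells of a type and less RNA per cell cannot be told apart. The paper states that the growth zone becomes shorter as the deficit deepens, so the segment took in most or all of it, depending on treatment. The part of this difference in the changes below was not tested. All treatments shared genotype, darkness, temperature and age after transplanting, and the p-values below measure the spread between pools of roots.

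The growth zone of the maize primary root is where cells divide and then lengthen by taking up water and loosening and rebuilding their walls. Messages for the cytoskeleton, for protein synthesis and folding, for sugar breakdown, for wall polymers and for water channels are typical of such tissue. Maize seedlings also store benzoxazinoids, defence compounds kept as harmless glucosides that a beta-glucosidase sets free when cells are broken. Low water potential slows elongation of the root tip, and dehydrins, glutathione S-transferases and lipoxygenases are protein families known for responses to water deficit and other stresses.

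The listed transcripts received between 33385679 and 52047078 reads per library, and a member had at least 16395 reads in every library. For most members counting error was therefore small beside the spread between libraries. The root hair gene rth3 was read at 56.2 to 58.9 CPM in well-watered, 58.4 to 62.1 CPM in mild stress and 42.4 to 46.6 CPM in severe stress libraries. The root initiation gene rtcs was at 1.55 to 2.93, 2.35 to 3.23 and 8.70 to 9.11 CPM in the same order. A pair of genes for chlorophyll-binding proteins, a class typical of green tissue, summed to 4.35 to 4.80, 4.51 to 5.60 and 6.55 to 8.01 CPM. For each of these markers the severe stress libraries did not overlap the others, and its part in the changes of the members was not tested. Other root, shoot and endosperm markers planned for this check are not given here. The library of severe stress replicate 2 stood apart. In it 61 transcripts, 41 of them outside the CPM list and none a member, lay above 1 CPM and above 10 times their level in each of the other 8 libraries, and no other library had such a transcript. It is therefore left out in turn beside the counts below.

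By reads, the leading member was glu1 (GRMZM2G016890_T01), the beta-glucosidase of the benzoxazinoid system, on the plus strand of chromosome 10 from 34240659 to 34246077 in the B73 RefGen_v3 annotation of the files. The well-watered libraries had 6639.9, 6637.0 and 6206.4 CPM of it, or 0.649% of the reads as a mean. That was 8.05 times the mean of the member ranked 100. The transcript ranked next, GRMZM2G015295_T01, has no gene name in the RefSeq table, and was read at 4053.5, 4115.3 and 4210.7 CPM. The others were well below. They began with grp1 (T03, a glycine-rich protein), the plasma membrane aquaporin PIP1-1, GRMZM2G391286_T01, GRMZM2G120962_T01, GRMZM2G181371_T01, the vacuolar membrane aquaporin TIP2-1, GRMZM2G056039_T01 and RAB15 (GRMZM2G165901_T01, a glycine-rich RNA-binding protein inducible by abscisic acid), with well-watered means between 2251 and 1905 CPM.

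**Figure D1:**
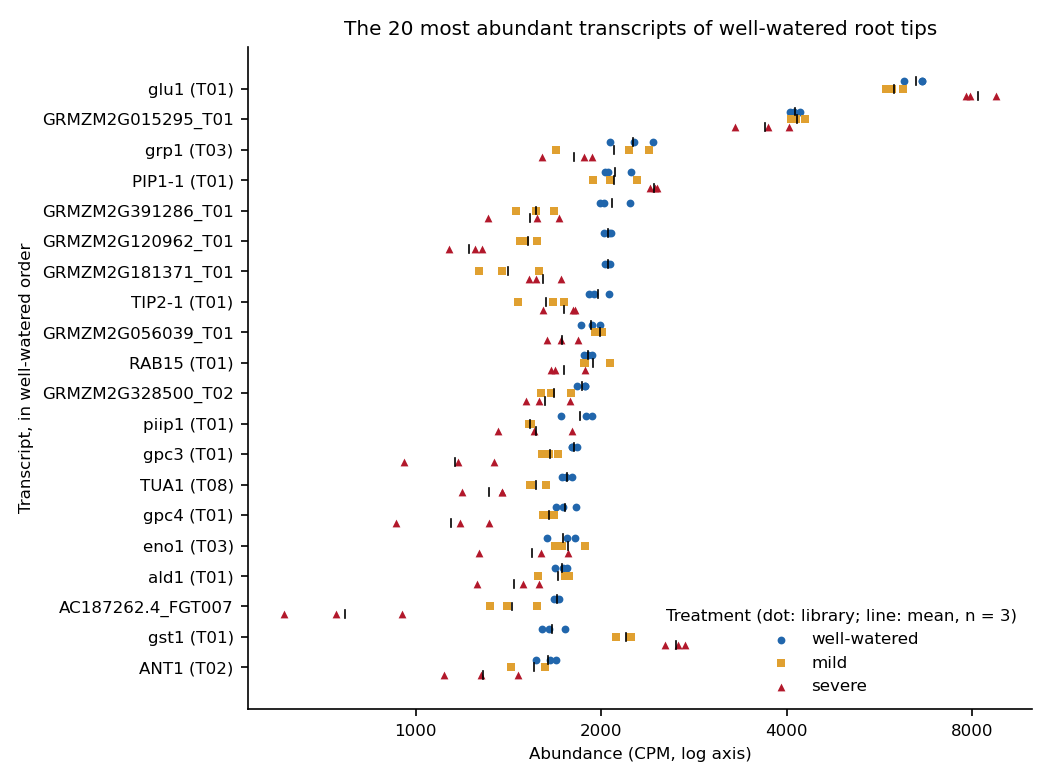
Abundance in CPM (log axis) of the 20 members with the highest well-watered means, in well-watered order, with a symbol for each library and a short line at the mean of the 3 libraries of a treatment. The 3 severe stress symbols of glu1 (7820.8 to 8757.1 CPM) and of gst1 (2541.2 to 2735.8 CPM) lie right of the well-watered ones, and those of AC187262.4_FGT007 (611.6 to 949.4 CPM) far to the left.

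A long transcript collects more reads than a short one at the same number of molecules, and the order above is one of reads. Of the 100 members 62 were also among the 100 highest in CPM per kb of transcript length. On that scale the highest member was AC187262.4_FGT007 (3361 CPM per kb, 504 bases, no gene name), followed by glu1 (3104 CPM per kb), GRMZM2G391286_T01 (2548 CPM per kb) and piip1 (2311 CPM per kb). The members were 504 to 5731 bases long, with a median of 1781.5 bases against 1580 bases over all listed transcripts, and had a median of 4 exons against 5. Genes with 1 annotated transcript made up 41 of the members, against 33.4% of all listed transcripts. None lay on the mitochondrial or plastid chromosome, and chromosome 1 held the most (18).

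The edge of the list was narrow. Inside it were rps4 (ribosomal protein S4, 822.9 CPM), GRMZM2G018197_T01 (819.2 CPM), GRMZM2G163081_T05 (815.3 CPM), aldolase2 (809.6 CPM) and GRMZM5G827266_T02 (806.9 CPM at rank 100). Just outside were GRMZM2G144387_T01 (806.1 CPM), GRMZM2G385287_T01 (803.1 CPM), glycine1 (801.1 CPM), PDIL1-1 (a protein disulfide isomerase, 800.3 CPM) and rps6-2 (ribosomal protein S6, 796.7 CPM). Neighbours in this order lay closer together than the spread of their replicates.

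The RefSeq table matched 91 members (86 genes), and 49 members (45 genes) had a gene name there. Of these, 34 fell into 10 classes read from the names. Glycolytic enzymes were the largest class with 7 members (gpc2, gpc3 and gpc4, cytosolic glyceraldehyde-3-phosphate dehydrogenases; ald1 and aldolase2, aldolases; eno1, enolase; Pgk-2, phosphoglycerate kinase), which together held 10136 ± 216 CPM in well-watered roots (SD, n = 3). Tubulins followed with 5 members and 6876 ± 212 CPM. The 5 chaperone members (calreticulin crt2, HSP90-2, the endoplasmic reticulum Hsp70 bip1 and 2 transcripts of hsp70-4) summed to 5468 ± 77.2 CPM, and the 3 aquaporins to 5191 ± 284 CPM. Glycine-rich proteins (3 members, 4776 ± 187 CPM), elongation factor 1 alpha, which brings aminoacyl-tRNA to the ribosome (3 members, 3471 ± 152 CPM), and cellulose synthases (3 members, 3286 ± 176 CPM) were the other classes with at least 3 members. Outside the classes stood, among others, the wall protein HRGP (hydroxyproline-rich glycoprotein), the mitochondrial ADP/ATP carrier ANT1, the ATP synthase beta subunit ATPB, the soluble invertase ivr2, the linker histone hon110 and the glutamine synthetase gln4. Ribosomal proteins, which each occur in many genes, gave only 2 named members (RP-P0 and rps4) of 84 listed transcripts with such a name. A further 51 members have no gene name, and nothing is said here of what they encode, except that GRMZM2G020801_T01 belongs to a gene annotated in the study as a cytoplasmic aconitate hydratase.

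The members together held 13.1%, 13.2% and 13.0% of the reads in well-watered replicates 1, 2 and 3. They held 12.9%, 12.6% and 12.5% in mild stress replicates 1, 3 and 4, and 12.3%, 11.2% and 12.2% in severe stress replicates 1, 2 and 5. The severe stress libraries all lay below the mild stress libraries, by 0.777 percentage points in the means, and an exact permutation test gave p = 0.1, the smallest that 3 against 3 libraries allow (two-sided). The well-watered share is high by the choice of members, so each library's own 100 most abundant transcripts were also summed. These held 13.1 ± 0.12% of the reads in well-watered, 12.8 ± 0.28% in mild stress and 12.6 ± 0.21% in severe stress libraries (SD, n = 3 each). Here severe and mild stress overlapped (exact permutation p = 0.4), and severe stress libraries all lay below the well-watered ones (exact permutation p = 0.1).

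Reads were spread over more transcripts under severe stress. In well-watered libraries 1532, 1525 and 1549 transcripts made up 50% of the reads, under mild stress 1503, 1591 and 1587, and under severe stress 1715, 1929 and 1758. All severe stress libraries exceeded all others, and against mild stress the exact permutation p was again 0.1. The very top moved the other way: the 10 highest transcripts of each library held 2.58 ± 0.03% of the reads under mild stress and 3.06 ± 0.19% under severe stress, with no overlap (exact permutation p = 0.1). Replicate 2 had the lowest member share and the widest spread of reads of the severe stress libraries. Without it the severe mean was 12.2% for the member share and 1736.5 for the number of transcripts.

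**Figure D2:**
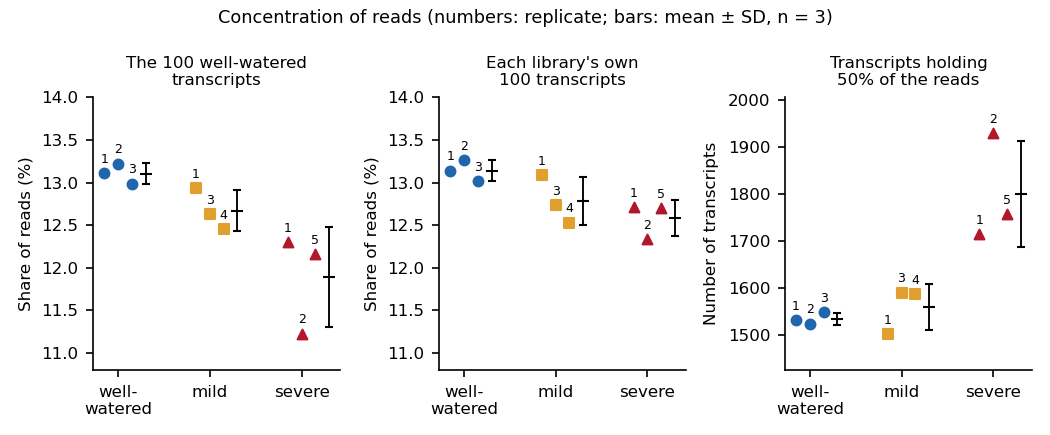
Share of reads in percent held by the 100 members (left) and by each library's own 100 most abundant transcripts (middle), and the number of transcripts that together hold 50% of the reads (right), a symbol for each library with its replicate number and a bar at the mean ± SD of 3 libraries. Severe stress lies lowest on the left (11.2% to 12.3%) and highest on the right (1715 to 1929 transcripts), whereas in the middle it overlaps mild stress.

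Most members kept their place under mild stress and fewer did under severe stress. Of the 100 members, 94 were still among the 100 highest by the mild stress mean and 77 by the severe stress mean (78 without replicate 2). By single libraries, 96 members were in the library's own top 100 in each well-watered library, 91 to 93 under mild stress, and 79, 70 and 76 in severe stress replicates 1, 2 and 5. A mean within 10% of the well-watered mean was found for 69 members under mild and for 18 under severe stress. The median coefficient of variation between replicates was 3.70% in well-watered, 4.78% in mild stress and 9.81% in severe stress libraries.

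Under mild stress 4 of the 100 members passed the test (edgeR quasi-likelihood F-test, Benjamini-Hochberg adjusted over all 46599 transcripts, FDR below 0.05), beside 2.43% of all transcripts and 3.78% of the 900 transcripts that follow them in the well-watered order. Of all transcripts 1.38% were higher and 1.06% lower. The well-watered libraries that chose the members are also the baseline, so nothing is read from this count. The 4 were dhn2 and gst1, which were higher, and GRMZM2G120962_T01 and GRMZM2G181371_T01, which were lower.

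The dehydrin dhn2 (GRMZM2G373522_T01, chromosome 4, 154337342 to 154339063, minus strand) encodes a hydrophilic protein of the group that accumulates in drying cells. It was read at 878.2, 907.7 and 937.2 CPM in well-watered, 1280.7, 1234.8 and 1373.0 CPM in mild stress and 1680.5, 1661.6 and 1673.4 CPM in severe stress libraries. The 3 treatments did not overlap. Against well-watered roots its log2 fold change was 0.49 (SE 0.06, edgeR FDR 0.0043) under mild and 0.78 (SE 0.06, FDR 4.1e-05) under severe stress. Between severe and mild stress it was 0.29 (SE 0.06, FDR 0.010), and without mild replicate 3 that call was lost.

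The glutathione S-transferase gst1 (GRMZM2G116273_T01, chromosome 8, 172671226 to 172674089, plus strand), an enzyme that joins glutathione to reactive compounds, showed the same order of treatments. Its values were 1745.2, 1603.3 and 1648.5 CPM in well-watered, 2236.8, 2232.2 and 2117.1 CPM in mild stress and 2541.2, 2735.8 and 2664.2 CPM in severe stress libraries, again without overlap. Mild stress gave a log2 fold change of 0.37 (SE 0.06, edgeR FDR 0.011) and severe stress one of 0.56 (SE 0.06, FDR 1.5e-04). The difference between severe and mild stress, 0.19 (SE 0.06, FDR 0.044), was lost in 8 of 9 fits with a library removed, with an FDR of 0.052 without severe replicate 2, and the mild stress call was lost in 4.

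Both transcripts that fell under mild stress were among the 10 highest. Their changes under mild stress start from the well-watered libraries that chose the members, and are given as a description. GRMZM2G120962_T01 went from 2072.6, 2060.3 and 2025.6 CPM (well-watered) to 1479.8, 1576.3 and 1504.0 CPM (mild) and 1280.0, 1131.4 and 1251.0 CPM (severe). It fell by 0.46 on the log2 scale under mild stress (SE 0.07, edgeR FDR 0.0094) and by a further 0.39 between mild and severe stress (SE 0.07, FDR 0.0036). GRMZM2G181371_T01 fell to a level shared by both stresses, from 2026.6, 2069.5 and 2055.3 CPM to 1586.3, 1265.8 and 1383.3 CPM (mild) and 1724.1, 1529.5 and 1568.8 CPM (severe). The change under mild stress was -0.56 on the log2 scale (SE 0.10, edgeR FDR 0.020; lost in 5 of 9 fits with a library removed), and severe and mild stress overlapped (0.11, SE 0.10, FDR 0.49). The call for GRMZM2G120962_T01 was lost in 2 such fits (without well-watered replicate 2 or mild replicate 4) and that for dhn2 in none.

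**Figure D3:**
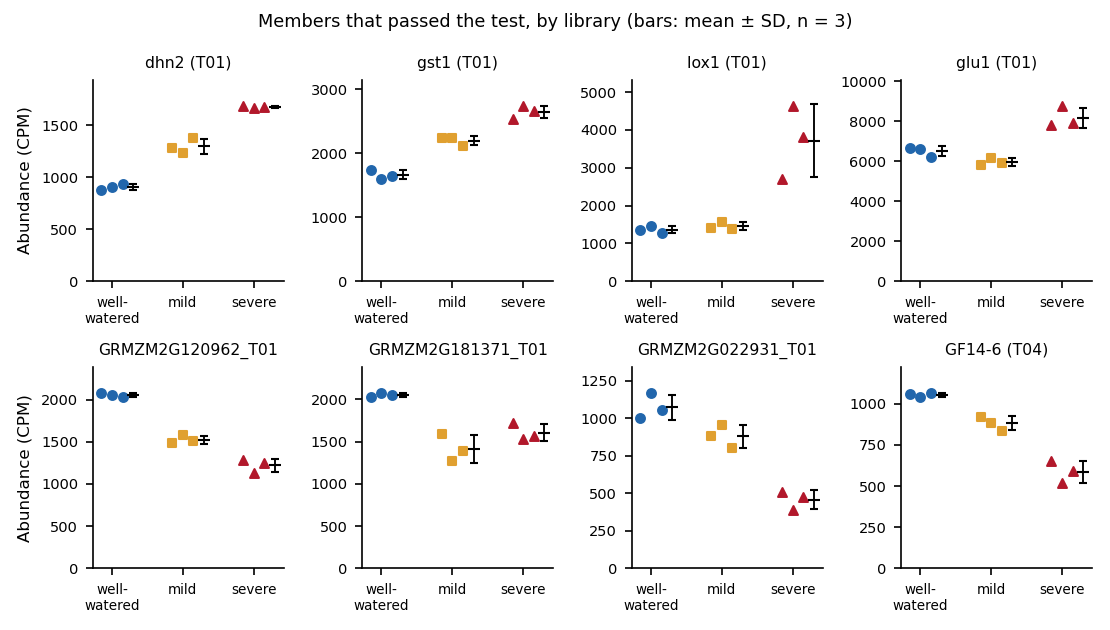
Abundance in CPM of 8 members that passed the test in at least 1 comparison, with a symbol for each library and a bar at the mean ± SD of 3 libraries. The mild stress libraries lie between the other treatments for dhn2, gst1, GRMZM2G120962_T01, GRMZM2G022931_T01 and GF14-6, and beside the well-watered libraries for lox1 (T01), whose severe stress libraries spread from 2700.5 to 4627.6 CPM.

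Severe against mild stress compares no library that chose the members, although the well-watered libraries shared in the estimate of the spread. Here 60 of the 100 passed the test (edgeR, FDR below 0.05), beside 24.2% of all transcripts, 6 of them higher under severe stress and 54 lower. By direction the background was 13.8% higher and 10.4% lower. Among the next 900 transcripts the share was 62.6%, with 8.56% higher and 54.0% lower, so that the members moved as the next transcripts in the order did. The median log2 fold change was -0.31 over the members, -0.32 over these 900 and 0.01 over all transcripts. Further down the order it was -0.18 over the next 4000 and -0.06 over the 10000 after those, and the share that fell was 38.0% and 18.1% there. In CPM, 8 members had all severe stress libraries above all mild stress libraries and 52 had them below, beside 25.7% and 14.3% of all listed transcripts. Without severe replicate 2 there were 5 higher and 46 lower, all of them among the 60, and the median was -0.24. A fit of only the mild and severe stress libraries, free of those that chose the members, gave 4 higher and 42 lower. Beside these stood 5500 and 3689 of all 46599 transcripts.

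**Figure D4:**
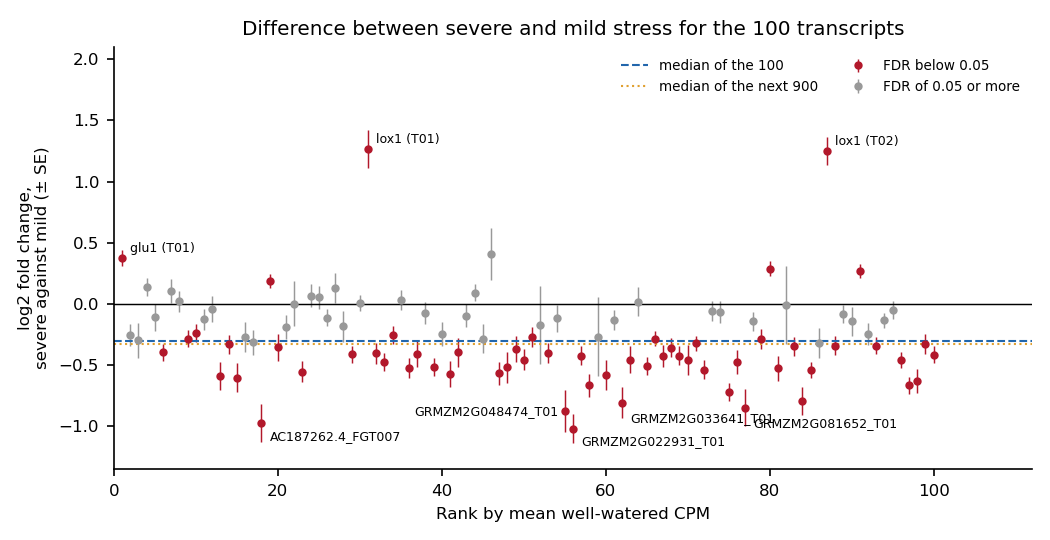
Log2 fold change between severe and mild stress (± SE, edgeR) of the 100 members in the order of their well-watered rank, coloured by whether the FDR was below 0.05, with dashed and dotted lines at the median of the members (-0.31) and of the next 900 transcripts in the order (-0.32). Most points lie below 0, and the pair of lox1 transcripts (1.264 and 1.252) lies far above the others.

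Against well-watered roots, 73 members passed the test under severe stress, 9 higher and 64 lower (edgeR, FDR below 0.05), beside 29.5% of all transcripts (16.4% higher and 13.1% lower) and 72.1% of the next 900 (8.78% higher and 63.3% lower). This comparison shares the well-watered libraries with the choice of members. It is given as a description, here and for single members below. The median log2 fold change was -0.40 over the members and -0.38 over the next 900. Only 3 members fell below 50% of their well-watered mean and 5 rose above 1.5 times it, and 43 were below 0.8 times. The 27 members that did not pass had log2 fold changes between -0.54 and 0.58. Without severe replicate 2 the counts were 9 higher and 57 lower, all of them among the 73. All 4 members that passed under mild stress also passed under severe stress, in the same direction.

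The lipoxygenase lox1, of a family that adds oxygen to polyunsaturated fatty acids, rose most. Its transcript T01 (GRMZM2G156861_T01, chromosome 3, 168878655 to 168882335) had 1358.1, 1459.0 and 1272.0 CPM in well-watered, 1417.2, 1573.5 and 1380.4 CPM in mild stress and 2700.5, 4627.6 and 3805.3 CPM in severe stress libraries. Its transcript T02 had 802.7, 893.4 and 797.4 CPM under mild and 1711.3, 2458.2 and 2119.9 CPM under severe stress. Mild stress and well-watered libraries overlapped, and every severe stress library was far above them. Between severe and mild stress the log2 fold changes were 1.264 for T01 (SE 0.15, edgeR FDR 6.4e-04) and 1.252 for T02 (SE 0.12, FDR 2.0e-04), and without severe replicate 2 they were 1.09 and 1.14. The files place T02 136130 bases before T01 under the same gene identifier. The gene as a whole went from 2288 ± 156 CPM under mild to 5808 ± 1341 CPM in severely stressed roots (SD over 3 libraries each), a log2 fold change of 1.23 (SE 0.14, edgeR FDR 2.9e-05), and T01 ranked 2 by the severe stress mean.

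The leading member glu1 was the other large rise by reads. It had 5796.6, 6183.8 and 5931.4 CPM under mild and 7820.8, 8757.1 and 7936.8 CPM under severe stress, and stayed the most abundant transcript in all 9 libraries. The log2 fold change between severe and mild stress was 0.37 (SE 0.07, edgeR FDR 0.0036), and it passed in every fit that left out a library. Against well-watered roots it was 0.23 (SE 0.07, FDR 0.029), a call that was lost in 6 of the 9 such fits and with the reads summed per gene (FDR 0.065).

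POD1 (GRMZM2G137839_T01) had 890.8, 841.0 and 874.3 CPM under mild and 1084.0, 1102.8 and 1131.0 CPM under severe stress. The log2 fold change between them was 0.27 (SE 0.06, edgeR FDR 0.0073), and it was 0.28 against well-watered roots (SE 0.06, FDR 0.0048). HRGP, the wall glycoprotein, had 1249.3, 1332.6 and 1348.1 CPM in well-watered, 1741.3, 1781.0 and 1623.8 CPM in mild stress and 1632.1, 1881.6 and 2065.1 CPM in severe stress libraries. Both stresses lay above the well-watered libraries and overlapped each other. The log2 fold change was 0.40 under severe stress (SE 0.08, edgeR FDR 0.0058) and 0.36 under mild stress (SE 0.08, FDR 0.057). The other 2 rises under severe stress were gpc2 (0.27, FDR 0.013) and GRMZM2G326111_T01 (0.26, FDR 0.020).

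The largest falls were in transcripts without a gene name. GRMZM2G022931_T01 (chromosome 3, 210588269 to 210590012, plus strand) had 1002.9, 1166.5 and 1053.3 CPM in well-watered, 881.1, 956.0 and 803.7 CPM in mild stress and 509.8, 390.1 and 474.8 CPM in severe stress libraries. All severe stress libraries lay far below all mild stress libraries (log2 fold change -1.02, SE 0.12, edgeR FDR 5.4e-04). AC187262.4_FGT007 (chromosome 1, 184732930 to 184733551, minus strand), the highest member per kb, went from 1575.4, 1321.5 and 1405.9 CPM under mild to 949.4, 611.6 and 743.7 CPM under severe stress (-0.98, SE 0.15, FDR 0.0021).

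The next falls between mild and severe stress were GRMZM2G048474_T01 (-0.88, SE 0.17, edgeR FDR 0.0060), GRMZM2G081652_T01 (-0.85, SE 0.15, FDR 0.0038) and GRMZM2G033641_T01 (-0.81, SE 0.13, FDR 0.0019). Severe stress replicate 2 was the lowest library for all 5 of these transcripts, at 373.6, 389.8 and 502.8 CPM for the last 3. Without it the 5 falls were -0.90, -0.82, -0.71, -0.69 and -0.68 in the order given, and all passed. GF14-6, a 14-3-3 protein of the group that binds phosphorylated partners, was lower as well, with 919.9, 886.3 and 836.2 CPM under mild and 649.7, 518.7 and 589.3 CPM under severe stress (-0.67, SE 0.09, edgeR FDR 0.0012). Only 0.5% of its reads were unique to the transcript.

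Among the glycolytic enzymes 3 of 7 members fell from mild to severe stress, and none rose. The glyceraldehyde-3-phosphate dehydrogenases differed among themselves. The pair gpc3 (1645.2, 1605.5 and 1702.2 CPM under mild, 1339.9, 956.8 and 1173.5 CPM under severe stress) and gpc4 (1649.4, 1608.8 and 1674.7 CPM, then 1315.1, 930.7 and 1179.1 CPM) had log2 fold changes of -0.59 (SE 0.12, edgeR FDR 0.0064) and -0.60 (SE 0.12, FDR 0.0065). For gpc2 the values were 1678.8, 1699.1 and 1681.6 CPM under mild and 1866.5, 1688.3 and 1823.2 CPM under severe stress, with a log2 fold change of 0.01 (SE 0.06, FDR 0.94). Unique reads were 6.5% for gpc3, 2.4% for gpc4 and 2.9% for gpc2. With unique reads alone gpc3 kept its call (-0.61, edgeR FDR 3.2e-05) and gpc4 lost it (-0.25, FDR 0.091). With reads summed per gene both passed (edgeR FDR 0.0012 each). The third fall was aldolase2 (-0.33, FDR 0.019, lost in 3 of 9 fits with a library removed), and ald1 missed the threshold (-0.31, FDR 0.050). Of 33 listed transcripts of the class 3 were higher and 5 lower, beside 13.8% and 10.4% of all transcripts. The members summed to 10182 ± 291 CPM under mild stress but 8646 ± 1025 CPM in severe stress libraries (SD, n = 3).

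All 5 members of the elongation factor 1 alpha and ribosomal protein classes were lower under severe than mild stress, beside 54.0% of the next 900 transcripts by rank. The 3 elongation factor 1 alpha members had log2 fold changes of -0.41 (elfa3), -0.57 (elfa2) and -0.43 (EF1A), and their sum went from 3439 ± 171 to 2631 ± 221 CPM. The 2 ribosomal members fell as well: RP-P0, of the stalk of the large subunit, went from 1347.0, 1270.3 and 1274.2 CPM to 993.8, 884.7 and 1003.5 CPM (-0.51, SE 0.07, edgeR FDR 0.0013), and rps4 from 907.6, 852.7 and 854.7 CPM to 680.6, 631.4 and 697.9 CPM (-0.46, SE 0.07, FDR 0.0014). Of the 84 listed transcripts with a ribosomal protein name 38 were lower and 2 higher, with a median of -0.52, beside 10.4% and 13.8% of all transcripts.

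Of the 5 chaperone members 3 were lower under severe than mild stress, near the 54.0% of the next 900 transcripts. From mild to severe stress crt2 went from 1284.2, 1360.0 and 1332.1 CPM to 1063.2, 918.8 and 1037.9 CPM (-0.47, SE 0.07, edgeR FDR 0.0019), and HSP90-2 and bip1 each fell by 0.53 on the log2 scale (FDR 0.0020 and 0.0054). The 2 hsp70-4 transcripts did not pass. Over all 69 listed chaperone transcripts 16 were lower and 5 higher, beside 10.4% and 13.8% of all transcripts.

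Of the 5 tubulin members, subunits of microtubules, 3 fell between mild and severe stress. The largest was tua6, from 824.9, 840.5 and 774.0 CPM to 566.0, 411.5 and 508.3 CPM (-0.79, SE 0.12, edgeR FDR 0.0014), followed by tub8 (-0.58, FDR 0.0043) and TUA1 T08 (-0.33, FDR 0.015, lost without mild replicate 1; the identifier of this gene matches both TUA1 and TUA2). Reads of tua4 T02 and TUA1 T01 were almost never unique, and these transcripts had log2 fold changes of 0.13 (SE 0.12) and 0.00 (SE 0.18). Among all 41 listed tubulin transcripts 10 were lower and 1 higher, with the same background.

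The wall and membrane classes were less uniform. None of the 3 cellulose synthase members passed between mild and severe stress (cesa8 -0.19, CesA-9 -0.08, cesa2 -0.25). Of 30 listed transcripts of the class 6 were higher and 1 lower, beside 13.8% and 10.4% of all transcripts. Against well-watered roots cesa2 was lower under severe stress (-0.42, SE 0.09, edgeR FDR 0.0067). RGP, a reversibly glycosylated polypeptide of the enzymes that supply wall polysaccharides, went from 1614.3, 1577.0 and 1550.7 CPM under mild to 1240.9, 1017.9 and 1149.9 CPM under severe stress (-0.55, SE 0.09, FDR 0.0020). Of the glycine-rich members grp3 had 1344.7, 1312.6 and 1343.5 CPM under mild stress, above all other libraries, and 984.9, 755.6 and 1083.9 CPM under severe stress (-0.58, SE 0.12, FDR 0.0079).

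Of the 3 aquaporin members 1 passed between mild and severe stress. PIP2-1 went from 895.9, 958.0 and 819.7 CPM under mild to 759.3, 789.2 and 789.8 CPM under severe stress (-0.27, SE 0.08, edgeR FDR 0.036), a call lost in 6 of 9 fits with a library removed. PIP1-1 had 2070.2, 2287.8 and 1942.3 CPM under mild and 2405.3, 2449.9 and 2467.0 CPM under severe stress and did not pass (0.14, SE 0.07, FDR 0.22), nor did TIP2-1 (0.02, SE 0.09, FDR 0.89). Against well-watered roots PIP2-1 was lower under severe stress (-0.62, SE 0.08, edgeR FDR 5.0e-04), in every fit with a library removed. TIP2-1 was lower as well (-0.28, SE 0.09, FDR 0.037, lost in 5 of 9 such fits), and PIP1-1 did not pass (0.11, SE 0.07, FDR 0.32). Over all 41 listed aquaporin transcripts 16 were higher and 2 lower under severe than mild stress, with a median of 0.32, beside 13.8% and 10.4% of all transcripts. Whether the members differ from the rest of the class was not tested. The calls between severe and mild stress depend on the scaling: with library sizes alone, without edgeR's TMM factors for library composition, PIP1-1 was higher and PIP2-1 did not pass.

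Both named malate dehydrogenases, mdh2 of the mitochondrion and CYTMDH of the cytosol, were lower under severe than mild stress (-0.41, FDR 0.019, and -0.35, FDR 0.012, edgeR). Beside them 10.4% of all transcripts and 54.0% of the next 900 by rank were lower. The mdh2 call was lost without mild replicate 1. Only 0.03% of the reads of the CYTMDH transcript were unique to it, and with unique reads its call was lost (-0.79, edgeR FDR 0.25). The whole CYTMDH gene had a log2 fold change of -0.22 (SE 0.08, edgeR FDR 0.044). ANT1 was lower (-0.36, FDR 0.046), a call lost in 7 of the 9 fits that left out a library, and ATPB did not pass (-0.25, FDR 0.095). The linker histone hon110 fell by 0.34 on the log2 scale (SE 0.07, edgeR FDR 0.0072). The abundances of ivr2 (1126.6 to 1320.8 CPM under mild, 1159.4 to 1281.8 CPM under severe stress) and gln4 (821.8 to 897.7 and 787.5 to 962.3 CPM) overlapped between all treatments, with log2 fold changes of -0.07 (SE 0.09) and -0.05 (SE 0.07).

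For part of the members a single transcript's value rests on reads that several transcripts share. Reads counted as unique to 1 transcript were below 5% for 24 members and below 1% for 16, with a median of 43.1% (13.7% over all listed transcripts). The 41 members of genes with 1 annotated transcript had only unique reads by this count. It may therefore leave out reads shared between similar genes, which was not tested. For the genes with a pair of members, the reads of the whole gene avoid the split between its own transcripts, though not such sharing. The grp1 transcripts moved apart: T03 went from 2257.9, 2069.8 and 2425.6 CPM in well-watered to 1931.7, 1603.4 and 1878.2 CPM in severe stress libraries (log2 fold change -0.42, edgeR FDR 0.048), and T02 from 1557.6, 1510.8 and 1393.9 CPM to 1883.6, 1667.3 and 1810.0 CPM (0.16, FDR 0.25). The whole gene had 4279 ± 165 and 4159 ± 232 CPM (-0.16, SE 0.09, FDR 0.15). In hsp70-4, T01 and T04 exchanged levels within the well-watered group, at 1243.0 and 625.7 CPM in replicate 1 but 564.3 and 1415.0 CPM in replicate 2. The whole gene was steady there (3133.0 and 3131.7 CPM) and fell to 2737 ± 134 CPM under severe stress from 3127 ± 26.6 CPM under mild stress (-0.29, SE 0.08, FDR 0.0088). GRMZM2G149751 had 3260 ± 101.2 CPM under mild and 3693 ± 188 CPM under severe stress as a gene (0.08, SE 0.09, FDR 0.47), while its T05 rose to 2585.5 CPM and its T03 fell to 499.0 CPM in severe stress replicate 2.

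**Figure D5:**
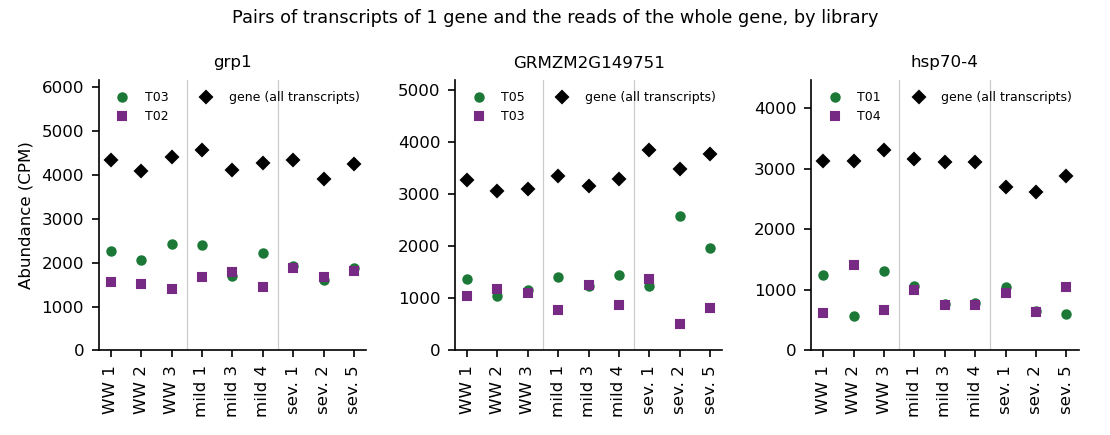
Abundance in CPM in each of the 9 libraries of 2 member transcripts and of all transcripts of the gene together, for grp1, GRMZM2G149751 and hsp70-4. The transcripts cross between libraries of the same treatment, as for hsp70-4 in well-watered replicate 2 (564.3 and 1415.0 CPM), while the gene sums of the well-watered libraries lie close together (3131.7 to 3310.4 CPM for hsp70-4).

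In place of the 23 members that left the top 100 under severe stress, others entered. The highest was exg1 (GRMZM2G147687_T03), a glucanase by name, with 565.2, 553.7 and 539.4 CPM under mild and 1173.8, 1237.3 and 1221.9 CPM under severe stress (log2 fold change 1.05, SE 0.07, edgeR FDR 4.3e-05). BURP3 (GRMZM2G106980_T02), named for the BURP domain of plant proteins, varied widely, with 581.0, 2014.0 and 872.9 CPM in severe stress replicates 1, 2 and 5 against 140.9 to 160.1 CPM under mild stress (2.87, SE 0.41, FDR 0.0012). It had ranked 2001 in well-watered roots. Then came sam2, an S-adenosylmethionine synthetase (T04, which did not pass and had 0.0073% unique reads), PAL1, a phenylalanine ammonia-lyase of the phenylpropanoid pathway (0.71, SE 0.14, FDR 0.0064), and asr1, named for abscisic acid, stress and ripening. The last had 226.7, 215.7 and 179.1 CPM in well-watered, 291.8, 330.9 and 325.1 CPM in mild stress and 912.8, 1144.3 and 919.3 CPM in severe stress libraries (1.57 between severe and mild stress, SE 0.11, FDR 6.2e-05). Because these transcripts were picked for high values under severe stress, their changes are a description.

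Only 6 transcripts entered under mild stress. GRMZM2G308463_T01, which has no gene name, rose from 326.3, 351.4 and 289.2 CPM to 1474.8, 1178.1 and 923.6 CPM and stood at 774.8, 537.6 and 784.8 CPM under severe stress. The glutathione S-transferase gst5 showed the same order, with 396.0, 192.4 and 290.1 CPM in well-watered, 947.8, 777.0 and 731.9 CPM in mild stress and 607.0, 425.5 and 653.1 CPM in severe stress libraries. For both the mild stress libraries lay highest, unlike gst1, which was highest under severe stress. The other 4 entrants had ranked 102 to 121 in well-watered roots. Both were chosen for naming after their values were seen.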

How the data were processed

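RNA from 9 pools of 5 root tips was poly(A)-selected and sequenced. The authors trimmed the reads, mapped them with CLC Workbench to the B73 RefGen_v3 gene models and deposited total and unique read counts for 63074 transcripts, and CPM for 46599 (edgeR is named in the submitters' processing notes). These CPM equal a transcript's share of the listed reads times 1000000 to within 5.0e-07. How shared reads were assigned and which filter made the list is not given in the sources used here. Counts of the listed transcripts were fitted in R 4.3.3 with edgeR 4.0.16 (TMM, quasi-likelihood, 1 model of 3 treatments over 9 libraries). A run of the fit on simulated counts changed few transcripts, as many up as down, and so did not test the scaling. The SE was taken from the size of the log2 change and the F statistic (F = square of change over SE), and SDs are of CPM. DESeq2 1.42.0, Python 3.11.15, pandas 2.3.3 and scipy 1.17.1 served the alternatives and summaries. Names come from RefSeq's table for Zm-B73-REFERENCE-NAM-5.0, without its coordinates. No sequence is shown. Classes had been planned from product names, which that table lacks, and were taken from gene symbols after the files were seen. Members and lists were chosen with earlier results of these data known. Named are the 10 highest members, ranks 96 to 105, the 5 largest rises and falls that passed in each comparison, the highest and most changed member of each class with at least 3, the 5 highest entrants under severe stress, and, chosen after their values were seen, the other members of each class and further members with a gene name. Alternatives were unique reads, other filters, DESeq2, no TMM, edgeR's newer method, fits of 2 treatments, a replicate block, each library left out, a stricter FDR (0.01), gene-level reads, and members chosen from 1 well-watered library or per kb.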

Additional observations from a re-analysis of the deposited data

Results flagged for a closer look

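Transcripts outside the CPM list, which no comparison used, held 43996 reads in severe stress replicate 2, against 15560 to 17552 in the well-watered libraries and 15445 to 24947 in all the other libraries. In the same library 61 transcripts lay above 1 CPM and above 10 times their level in each other library, with 549.7 CPM in all. The highest outside the list, GRMZM2G102138_T01, had 805 reads there and at most 2 in any other library, and the highest inside it, GRMZM2G079440_T01, had 11137 reads there and at most 422 elsewhere. None of the 61 was a member, and their part in the member values of this library was not tested.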

How the results depend on the processing

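The counts of members higher and lower under severe stress (9 and 64) and between severe and mild stress (6 and 54) stayed within 1.5 times under every alternative except the replicate block. Same-numbered libraries did not deviate together (correlations of -0.01 to 0.03 over 5 pairs, against -0.07 to 0.05 for the others), and the main fit treated the samples as unpaired. So few pairs cannot exclude that same-numbered pools were handled together. With the replicate block in edgeR 4 members were higher and 37 lower under severe stress, 1 higher and 0 lower between severe and mild stress (44 lower at an unadjusted p under 0.05), and 0 either way under mild stress (3 higher and 4 lower unadjusted). Replicate numbers 4 and 5 occur once each, and mild and severe stress share only replicate number 1. The block therefore leaves few libraries from which to estimate the spread. The cause of the lower counts was not tested. Under mild stress the counts of 2 higher and 2 lower were unstable. They were 4 and 5 with DESeq2, 4 and 2 without TMM, 6 and 6 in the fit of 2 treatments, and 1 and 1 at an FDR below 0.01. Unique reads and reads summed per gene each gave 6 lower. Members chosen from 1 well-watered library and tested with the others gave 1 higher (libraries 2 and 3) and 1, 0 and 1 lower (libraries 1, 2 and 3; 10 lower unadjusted for library 2).

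Leaving out each library in turn gave 1 to 5 higher and 0 to 4 lower under mild stress, 6 to 10 and 54 to 71 under severe stress, and 4 to 7 and 40 to 62 between severe and mild stress. Under mild stress the count lower was 0 without well-watered replicate 2 or mild replicate 4 (9 unadjusted in each), and the count higher was 5 without severe replicate 2. The member share ranged from 13.0% to 13.2% (well-watered), 12.5% to 12.8% (mild) and 11.7% to 12.2% (severe). The share was 13.3% of unique reads in well-watered libraries, 12.6% for the own 100 most abundant under severe stress, 8.41%, 8.10% and 7.93% for the 50 most abundant and 19.6%, 19.0% and 17.5% for the 200 most abundant (well-watered, mild, severe). Without TMM factors the median of all transcripts rose by 0.11 (log2) under severe stress, and the median of the members was -0.30. No member named by rule reversed, that is by its rank, by its place among the largest changes or by the pick per class. Of 2109 comparisons of such a member with an alternative, 150 lost and 40 gained a call. Members chosen for naming after their values were seen, and transcripts outside the 100, were not part of this check. A member had at least 16395 reads in every library. The 3 libraries per treatment, and the unstated assignment of shared reads, limit the values of single transcripts.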
